A study of Mus musculus with 2 samples.

Results

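Besides Cck, pancreatic β cells can transcribe other genes for neuropeptide or peptide hormone precursors, and 8 of these were described here across islet cell types and diets. They were Ucn3, Pdyn, Npy, Nucb2, Gast, Cartpt, Gal and Adcyap1, listed by gene symbol with no threshold on a measured value, out of 31053 genes in the count tables. All were measured in the same pair of single-cell RNA libraries, and 7 of the 8 had a UMI, a unique molecular identifier that marks 1 captured transcript, in a kept cell. Adcyap1, which encodes the pituitary adenylate cyclase-activating peptide, had 0 UMIs there.

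Neuropeptides are cut from longer precursors inside secretory granules and are released with them, so a β cell that makes one can release it along with insulin. Ucn3 encodes urocortin 3, a β cell peptide that acts on δ cells and through them restrains insulin release. It is widely used as a mark of mature mouse β cells. Pdyn encodes prodynorphin, the precursor of opioid peptides of the dynorphin family. Nucb2 encodes nucleobindin 2, the precursor of the satiety peptide nesfatin-1. Cartpt, Npy and Gal encode peptides best known from appetite and autonomic neurons, and Gast encodes gastrin, which shares its receptor-binding end with cholecystokinin.

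Islets came from male C57/B6 mice that were 16 weeks old. The labels name no diet for the wild-type mice of the WT library, and the study's methods state standard chow for mice not on the high-fat diet. Mice of the HFD library were given feed with 60% of calories from fat for 10 weeks, beginning when they were 6 weeks old. Each group gave 1 library, made from the pooled islets of 4 mice after a dead cell removal step. Diet, pool and library therefore cannot be told apart, no test of diet was possible, and the 95% intervals given here cover counting error only.

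In total 73843674 UMIs were counted over 3895 WT barcodes, and 94375138 over 8951 HFD barcodes. Barcodes with at least 500 genes and at most 20% mitochondrial UMIs were kept, without candidate doublets and with no maximum of UMIs, which left 2493 WT and 6673 HFD cells. The libraries shared 9 barcode sequences. Depth differed, with a median of 23997 UMIs per kept WT cell and 10925 per kept HFD cell. Cells were named from marker genes as β-like and so on, and 1927 WT and 5857 HFD cells were β-like. Ins1 and Ins2, the insulin genes, made up 60.4% of the UMIs of the median WT β-like cell and 57.2% of the median HFD one. The β-like cells of the libraries lay mostly in different clusters. Clusters 3, 6, 8 and 9 held most WT cells, and clusters 1, 2, 4, 5 and 7 held most HFD cells. Transcripts typical of other cell types differed between the libraries in β-like cells. Gcg, the α cell hormone gene, stood at 1290 UMIs per 1000000 UMIs of the class (CPM) in WT and 628 CPM in HFD. Sst of δ cells stood at 1309 and 780 CPM, and 7 acinar enzyme genes together at 156 and 449 CPM. Their source in β-like cells and their part in the results below were not tested.

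Sequence just before the gene start is shown for the 3 members counted in most or many β-like cells and, for Cartpt, around a single motif. The windows are the 250 bases before the start in RefSeq (GRCm38.p6), read 5′ to 3′ on the strand of the gene. RefSeq lists 2 starts for Pdyn, and the one shown lies farther upstream. Capitals mark CCAAT or its reverse complement ATTGG, and TGACGTCA, the palindromic cyclic AMP response element.
Ucn3 (chr13:3945350-3945599, minus strand): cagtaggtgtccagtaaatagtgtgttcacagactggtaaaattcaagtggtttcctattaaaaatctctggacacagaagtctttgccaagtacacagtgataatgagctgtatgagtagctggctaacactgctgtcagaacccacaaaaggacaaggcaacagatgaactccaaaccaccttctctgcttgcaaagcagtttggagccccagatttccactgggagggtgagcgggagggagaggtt
Pdyn (chr2:129699939-129700188, minus strand): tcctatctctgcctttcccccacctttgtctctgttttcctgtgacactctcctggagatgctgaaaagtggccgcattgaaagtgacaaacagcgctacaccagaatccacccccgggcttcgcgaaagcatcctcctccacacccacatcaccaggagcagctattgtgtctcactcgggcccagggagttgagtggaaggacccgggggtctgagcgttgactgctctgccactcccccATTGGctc
Nucb2 (chr7:116504119-116504368, plus strand): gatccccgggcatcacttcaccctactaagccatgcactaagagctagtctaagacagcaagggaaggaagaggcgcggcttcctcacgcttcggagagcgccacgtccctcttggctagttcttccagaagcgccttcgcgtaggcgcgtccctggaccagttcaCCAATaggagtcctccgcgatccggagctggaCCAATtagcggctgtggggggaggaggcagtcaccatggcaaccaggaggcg
Cartpt (chr13:99900777-99900806, minus strand, 30 bases): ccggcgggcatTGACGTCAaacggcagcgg
Of the 32851 RefSeq windows of this length, 33.8% held CCAAT on either strand and 1.55% held TGACGTCA. CCAAT stood in the windows of Pdyn, Nucb2, Npy and Adcyap1. TGACGTCA stood only in that of Cartpt among the 8 genes, beginning 112 bases before the RefSeq start. In the GENCODE annotation, used below for gene positions, Cartpt begins farther upstream, at 99901091, so its window lies inside that gene. The shorter TGACG, which lies within TGACGTCA, was in 17.8% of windows, and among the members in those of Cartpt and Adcyap1. TATAAA was in 12.4% of windows, and among the members in those of Gast and Adcyap1. The Ucn3 and Gal windows held none of these letters. A match describes the letters only.

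Ucn3 was counted in most β-like cells under both diets. Ucn3 lies on chromosome 13 (3940688 to 3945349, GRCm38, minus strand) and stood at 190 CPM (187 to 194) in WT and 173 CPM (170 to 176) in HFD β-like cells. The HFD to WT ratio was 0.908 (0.886 to 0.931). A Ucn3 UMI was found in 1769 of 1927 WT cells and 4749 of 5857 HFD cells. At a matched 2000 UMIs per cell, 32.6% of WT (30.5 to 34.7) and 28.3% of HFD β-like cells (27.2 to 29.5) had a Ucn3 UMI. This thinning left out 15 WT and 13 HFD cells that were shallower. The difference held 0 in its interval at 1000 UMIs (-1.66 percentage points, -3.66 to 0.246) and at 5000 UMIs (-1.96, -4.56 to 0.658).

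Nucb2 was higher in HFD. Nucb2 (chromosome 7, 116504369 to 116540584, plus strand) stood at 129 CPM (126 to 132) in WT and 214 CPM (211 to 217) in HFD β-like cells, a ratio of 1.66 (1.62 to 1.71). At 2000 UMIs per cell its share of positive cells was 21.5% in WT (19.7 to 23.5) and 31.8% in HFD (30.6 to 33.0). At 2000 UMIs the Nucb2 share was thus higher in HFD and the Ucn3 share lower, though the Ucn3 difference held 0 at 1000 and 5000 UMIs.

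Pdyn was higher in HFD by a similar or greater factor. Pdyn (chromosome 2, 129686565 to 129699844, minus strand) stood at 43.4 CPM (41.8 to 45.1) in WT and 89.1 CPM (87.0 to 91.2) in HFD β-like cells, a ratio of 2.05 (1.96 to 2.14). The matched share of positive cells was 6.07% in WT (5.04 to 7.23) and 13.3% in HFD (12.4 to 14.2). The ratio was 1.94 when hormone and mitochondrial genes were left out of the scaling. Endothelial-like cells, which should lack Ucn3 and Pdyn, had at the same depth a UMI of either in 0 of 96 WT cells (3 counts would be 3.12% of them). Before thinning, 2 of 74 HFD endothelial-like cells had a Ucn3 UMI and 0 had a Pdyn UMI. Nucb2 had a UMI in 6 of the 96 WT cells, and this class is no background for it.

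Over all 11445 genes with at least 100 UMIs in β-like cells, 0.970% were at least 2-fold higher in HFD and 1.24% at least 2-fold lower, and the median log2 ratio was -0.02. Of the 6 members over that minimum, Pdyn, Gast and Cartpt were at least 2-fold higher and Npy was at least 2-fold lower. Cartpt stood at the 99.7th percentile of the log2 ratios, Gast at the 99.3rd, Pdyn at the 99.1st, Nucb2 at the 98.3rd, Ucn3 at the 31.7th and Npy at the 0.131st. Gal, with 47 UMIs, and Adcyap1 were under the minimum.

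**Figure D1:**
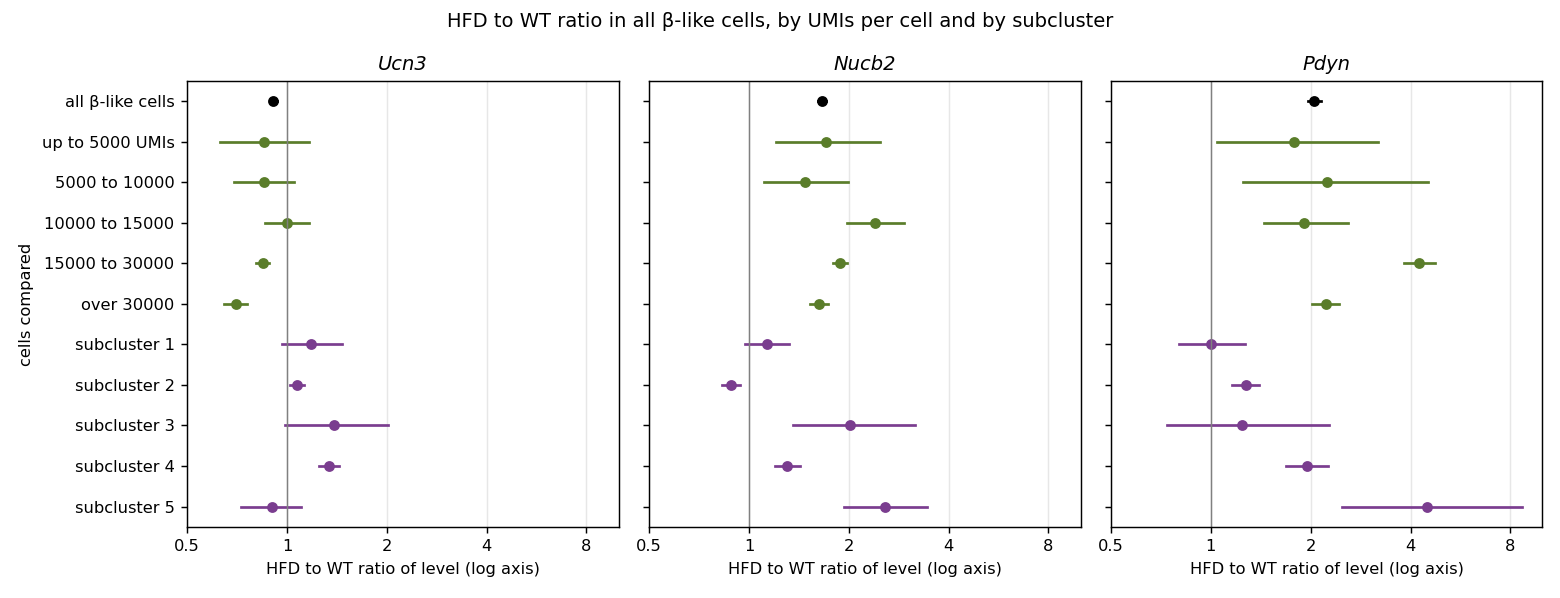
HFD to WT ratio of the level (log axis; points with exact 95% counting intervals) of Ucn3, Nucb2 and Pdyn in all β-like cells (black), by range of UMIs per cell (green) and within 5 subclusters (purple). The Pdyn and Nucb2 ratios lie above 1 in all 5 UMI ranges, and in subcluster 1 the Pdyn ratio is 1.002.

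Pdyn and Nucb2 were higher in HFD in each range of depth per cell. From the shallowest to the deepest of 5 ranges of UMIs per cell, the HFD to WT ratio of Pdyn was 1.78, 2.24, 1.91, 4.25 and 2.22, and every interval lay above 1. Among cells of 15000 to 30000 UMIs, 739 WT cells held Pdyn at 23.0 CPM and 1795 HFD cells at 98.0 CPM. In cells of 10000 to 30000 UMIs together the ratio was 3.88. WT cells of over 30000 UMIs held more Pdyn (51.0 CPM) than those of 15000 to 30000. The Nucb2 ratio lay between 1.47 and 2.40 in the same ranges, again with every interval above 1. The Ucn3 ratio lay between 0.70 in the deepest cells and 0.997 at 10000 to 15000 UMIs, and only the 2 deepest ranges had intervals below 1.

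The β-like cells were also divided again without the members, hormone genes or other panel genes, which gave 5 subclusters, and the levels of Pdyn and Nucb2 differed among these. Subcluster 1 held 28 WT and 2803 HFD cells and was led by Hbb-bs, Dapl1, Pappa2, Ttr and Sdf2l1. Pdyn itself was among its 10 leading genes although the division did not use it. Its 28 WT cells held Pdyn at 110 CPM (87.5 to 137), and its HFD cells at 111 CPM, a ratio of 1.002 (0.80 to 1.27). These few WT cells thus had about the Pdyn level of the HFD cells beside them and well above the 43.4 CPM of all WT β-like cells. Nucb2 was also high there, at 232 CPM in WT against 262 CPM in HFD. Subcluster 2 held 1450 of the WT cells and was led by the immediate early genes Fos and Egr1. Gcg and Sst were also among its 10 leading genes. Pdyn stood in this subcluster at 46.4 CPM in WT against 59.2 CPM in HFD, a ratio of 1.27 (1.16 to 1.40). There Nucb2 was lower in HFD, at 120 CPM against 136 CPM in WT, a ratio of 0.88 (0.83 to 0.94). Subcluster 4, led by the metallothionein genes Mt1 and Mt2, held 372 WT and 802 HFD cells and had ratios of 1.95 for Pdyn, 1.31 for Nucb2 and 1.34 for Ucn3. Subcluster 3 held 22 WT and 1353 HFD cells and was led by acinar enzyme genes and Sst. Subcluster 5 was led by mitochondrial genes, with 55 WT and 129 HFD cells, and had the highest Pdyn ratio of the 5, at 4.50 (2.49 to 8.70). Ucn3 was lower in HFD over all β-like cells but not within subclusters 2 and 4, where its ratios of 1.07 (1.02 to 1.12) and 1.34 (1.25 to 1.43) lay above 1.

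Among the clusters of the whole cell set with at least 30 β-like cells of each library, the Pdyn ratio lay above 1 throughout. Its ratio was 2.28 in cluster 3, 1.66 in cluster 6, 1.46 in cluster 7, 1.80 in cluster 8 and 1.19 in cluster 9, where the interval (0.861 to 1.62) held 1. Clusters 1 and 2, with only 16 and 14 WT cells, went the other way: the ratio was 0.512 (0.402 to 0.661) in cluster 1, where WT stood at 206 CPM, and 0.760 (0.472 to 1.31) in cluster 2. Clusters 4, 5 and 20, with 3, 13 and 9 WT cells, had ratios of 3.56 (1.22 to 17.3), 5.54 (1.53 to 45.8) and 1.13 (0.601 to 2.28). Nucb2 had intervals above 1 in clusters 6 and 8 and intervals that held 1 in clusters 3, 7 and 9.

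Pdyn was spread unevenly over β-like cells, unlike Ucn3. In WT 706 cells held all 2743 Pdyn UMIs, whereas 1326 cells would have had a UMI if Pdyn had followed depth alone. For Ucn3 the same figures were 1769 and 1832. In HFD 2513 cells held Pdyn against 3819 by depth. The highest cell was a WT cell with 45 Pdyn UMIs among 38080, and the highest HFD cell had 30. With each cell thinned to 5000 UMIs, the variance of the Pdyn count was 2.14 times its mean in WT and 2.02 times in HFD. For Ucn3 it was 1.14 and 1.23 times the mean, and for Nucb2 1.16 and 1.28 times. A value of 1 is what even spread gives.

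**Figure D2:**
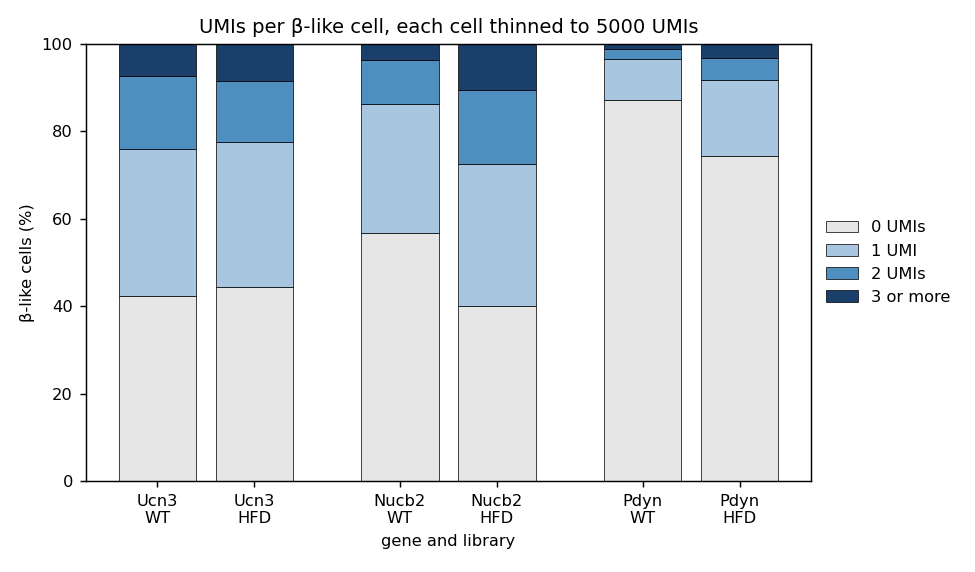
Share of β-like cells (%) with 0, 1, 2 or at least 3 UMIs of Ucn3, Nucb2 and Pdyn after each cell was thinned to 5000 UMIs, for 1824 WT and 5631 HFD cells. Cells with Pdyn make up 12.7% in WT and 25.6% in HFD, and those with Nucb2 43.3% and 59.9%, while Ucn3 is at 57.6% and 55.7%.

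At 5000 UMIs, cells with at least 3 Pdyn UMIs made up 1.15% of WT and 3.25% of HFD β-like cells. Both the share of cells with Pdyn and the share with several UMIs were thus higher in HFD. For Nucb2 the share with at least 3 UMIs was 3.62% and 10.4%. For Ucn3 it was 7.24% and 8.36%. Nucb2 was found in a larger share of cells with Pdyn than of cells without it. In HFD, 66.8% of cells with Pdyn had Nucb2 (64.3 to 69.2) against 57.5% of cells without it (56.0 to 59.0). In WT the shares were 48.7% (42.1 to 55.3) and 42.5% (40.02 to 44.9), with intervals that overlapped. Ucn3 went slightly the other way in HFD, at 54.1% of cells with Nucb2 (52.4 to 55.8) and 58.0% of cells without it (55.9 to 60.0).

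**Figure D3:**
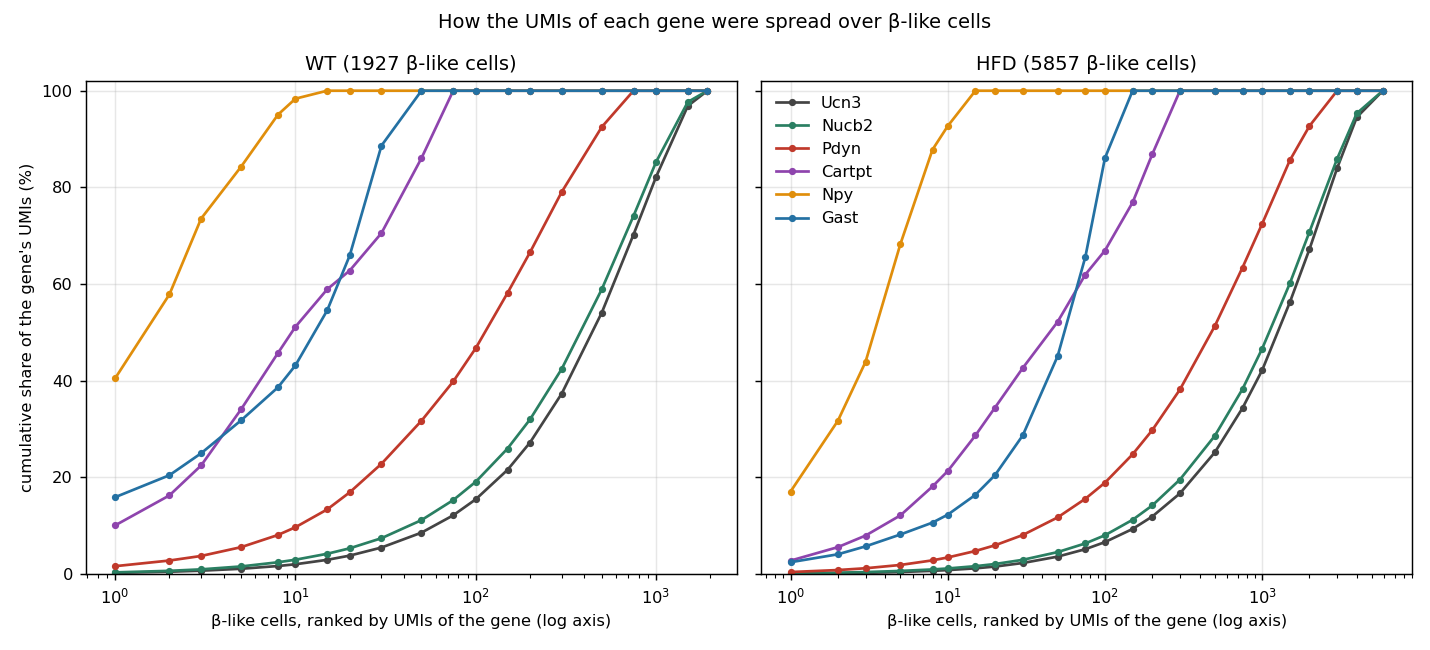
Cumulative share of each gene's UMIs (%) over β-like cells ranked from the most UMIs of that gene (log axis), WT left and HFD right. The curve of Npy reaches 100% within 12 WT and 13 HFD cells, Cartpt and Gast within at most 266 cells, and the curves of Ucn3 and Nucb2 climb most slowly.

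Cartpt (chromosome 13, 99898489 to 99901091, minus strand) encodes the cocaine- and amphetamine-regulated transcript peptides and was counted in few cells. It had 129 UMIs in 68 WT β-like cells (2.04 CPM, 1.70 to 2.43) and 502 UMIs in 266 HFD cells (6.36 CPM, 5.82 to 6.94), a ratio of 3.12 (2.56 to 3.81). A small set of cells carried much of it. In WT 10 cells with at least 3 UMIs held 51.2% of the Cartpt UMIs, and in HFD 38 such cells held 47.4%. By depth alone about 0.179 WT and 1.03 HFD cells would have had 3 or more. Of the 38 HFD cells, 32 lay in subcluster 1, and their Pdyn level was 124 CPM against 88.7 CPM in the other HFD β-like cells. Their Nucb2 level was 266 CPM against 213 CPM, and their Ucn3 level was lower, at 122.7 CPM against 173 CPM. These 38 cells were also deeper, with a median of 21338 UMIs against 11857. HFD cells of subcluster 1 as a whole held Pdyn at 111 CPM and Nucb2 at 262 CPM. The 10 WT cells went the other way on all 3 genes. They held Pdyn at 24.3 against 43.5 CPM in the other WT cells, Nucb2 at 87.6 against 129 CPM and Ucn3 at 229 against 190 CPM. In cells of at most 15000 UMIs, where only 4 WT UMIs of Cartpt were left, the ratio was 1.85 on a log2 interval of -0.50 to 2.78, which held 0. It was 1.28 (0.485 to 4.78) at 10000 to 15000 UMIs, 4.31 (2.97 to 6.46) at 15000 to 30000 and 5.23 (3.67 to 7.38) in deeper cells.

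Npy (chromosome 6, 49822710 to 49829507, plus strand), the precursor of neuropeptide Y, was the member that was at least 2-fold lower in HFD. It had 121 UMIs in WT (1.92 CPM, 1.59 to 2.29) and 41 in HFD β-like cells (0.520 CPM, 0.373 to 0.705), which was 3.69-fold lower. This rested on very few cells: 12 WT cells held Npy, and 1 of them with 49 UMIs held 40.5% of the total, while 13 HFD cells held it with at most 7 each. Without the highest cell of each library the log2 ratio was -1.40 in place of -1.88. The 8 WT cells with at least 3 Npy UMIs had a median insulin share of 64.6%, and 0 of 8 were over 1% in Gcg, Sst, Ppy and Pyy together. They were deep, with a median of 52818 UMIs against 29488 in the other WT β-like cells, and held Pdyn at 72.7 against 43.2 CPM and Ucn3 at 150 against 191 CPM. The direction was not the same within clusters: Npy was higher in HFD in cluster 3 (ratio 5.76, 2.19 to 12.9, with 7 HFD UMIs) and in cluster 8 (4.27, 1.06 to 24.5), and in subcluster 2 the ratio was 1.04 (0.445 to 2.15). At 2000 UMIs per cell Npy was seen in 3 WT and 2 HFD cells, so the share of positive cells did not separate the libraries at that depth.

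Gast (chromosome 11, 100334407 to 100336996, plus strand) was thinly spread. It had 44 UMIs in 35 WT cells (0.697 CPM, 0.506 to 0.935) and 122 UMIs in 117 HFD β-like cells (1.55 CPM, 1.28 to 1.85), a ratio of 2.22 (1.56 to 3.21). Without β-like cells in which Gcg, Sst, Ppy and Pyy exceeded 1% of UMIs, 23 WT and 112 HFD UMIs were left and the ratio was 3.76. The WT cell with the most Gast had 7 UMIs, and 11.1% of its UMIs came from those 4 hormone genes.

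Gal (chromosome 19, 3409915 to 3414544, minus strand), the galanin precursor, was all but absent from β-like cells, with 7 UMIs in WT (0.111 CPM, 0.0446 to 0.228) and 40 in HFD (0.507 CPM, 0.362 to 0.690). Its level was highest in acinar-like cells, at 72.3 CPM (33.1 to 137) in 10 WT cells and 53.6 CPM (11.1 to 157) in 4 HFD cells. At the ratio of Gal to acinar enzyme UMIs seen in acinar-like cells, the acinar UMIs present in β-like cells would have brought 1.82 Gal UMIs in WT and 4.72 in HFD, against the 7 (2.81 to 14.4) and 40 (28.6 to 54.5) counted. Adcyap1 (chromosome 17, 93199017 to 93206537, plus strand) had 0 UMIs in β-like cells, which allows a level of up to 0.0475 CPM in WT and 0.0380 CPM in HFD at 3 counts.

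**Figure D4:**
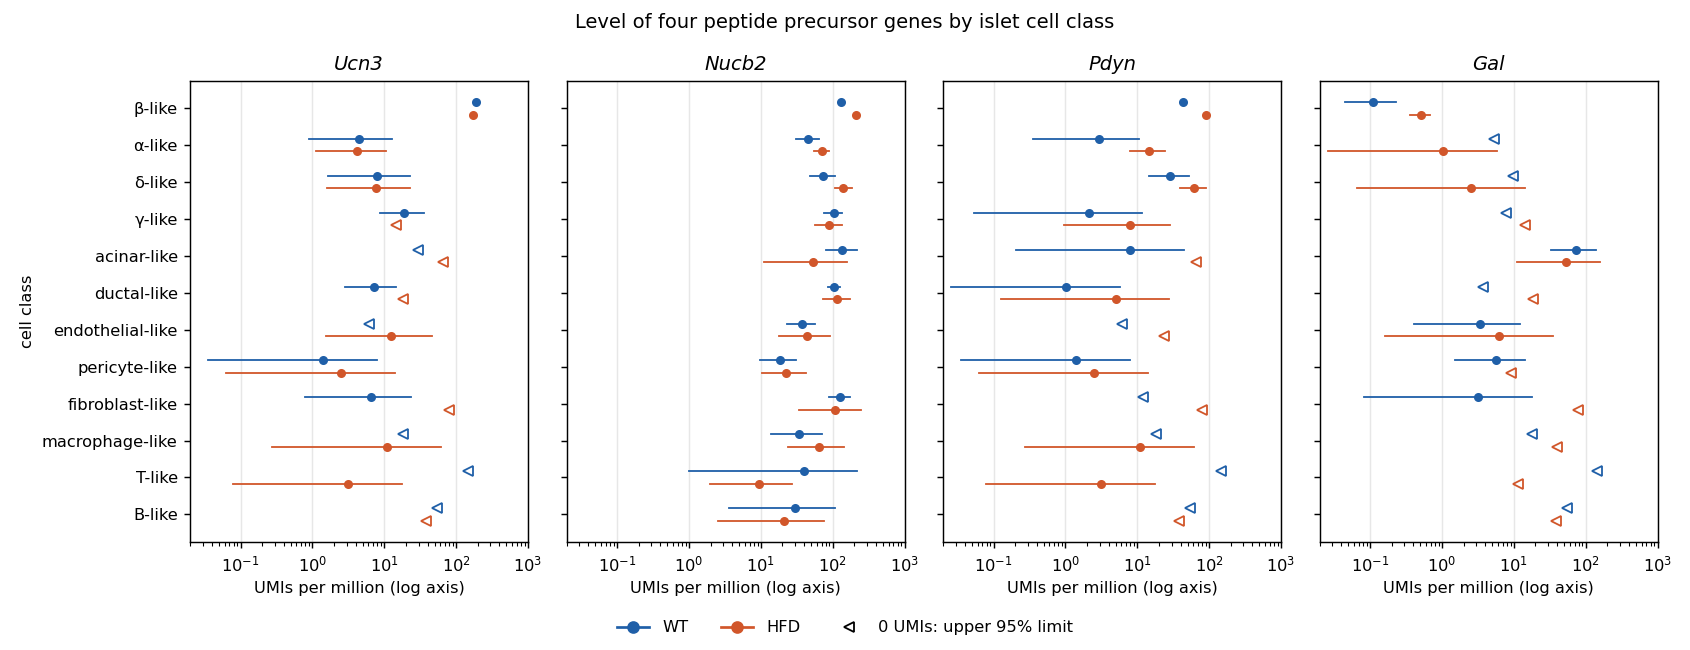
Level (CPM, log axis) of Ucn3, Nucb2, Pdyn and Gal in 12 cell classes, WT in blue and HFD in orange, with exact Poisson 95% intervals. Open triangles are upper limits where 0 UMIs were counted. Ucn3 falls steeply outside β-like cells, Nucb2 is found in every class drawn, Pdyn is next highest in δ-like cells, and Gal is highest in acinar-like cells.

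Across cell classes Ucn3 was close to a β cell gene. Of its 25699 UMIs in kept cells, 99.8% lay in β-like cells. The next levels among named classes were 19.0 CPM in WT γ-like cells (9 UMIs) and 12.6 CPM in HFD endothelial-like cells (2 UMIs), and the WT γ-like interval (8.67 to 36.0) lay above those of WT pericyte-like and endothelial-like cells. The other intervals of classes after β-like overlapped that of WT γ-like cells. Droplets carry free RNA from other cells, and its size was gauged by Ins2: if Ucn3 had come along with Ins2 in the β-like ratio, 12.03 UMIs would have been counted in WT γ-like cells and 2.33 in WT α-like cells, where 9 and 3 were. In none of the 12 other named classes of either library did the interval of the Ucn3 count lie above the count so gauged.

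Pdyn was also present in δ-like cells. It stood at 28.8 CPM (14.4 to 51.6) in 49 WT δ-like cells and 61.5 CPM (39.4 to 91.5) in 117 HFD δ-like cells. The 11 and 24 UMIs counted there compare with 0.232 and 2.88 UMIs that the Ins2 ratio would bring. The δ-like interval overlapped that of β-like cells in both libraries. The HFD to WT ratio in δ-like cells, 2.14 (1.01 to 4.83), was close to that in β-like cells, on few UMIs. In α-like cells Pdyn stood at 2.92 CPM in WT (2 UMIs) and 14.5 CPM (7.94 to 24.4) in HFD (14 UMIs, of which 7 came from 2 cells). Endothelial-like cells had 0 Pdyn UMIs in either library, and the other non-endocrine classes had at most 1 in each library.

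Nucb2 was broadly present. In WT the order from β-like (129 CPM) ran through fibroblast-like (126), ductal-like (105), γ-like (103), δ-like (73.3), α-like (45.2) and endothelial-like cells (37.1) down to pericyte-like cells (18.3), with acinar-like cells at 137 CPM on 17 UMIs. The intervals of acinar-like, fibroblast-like, ductal-like and γ-like cells overlapped that of β-like cells. For ductal-like cells the overlap was narrow, at 85.5 to 127.1 CPM against 125.9 to 131.5 CPM. In HFD the β-like level of 214 CPM lay above that of δ-like cells (141, 106 to 184), ductal-like cells (115, 73.0 to 173) and γ-like cells (89.7, 56.9 to 135). The HFD to WT ratio was 1.92 (1.198 to 3.15) in δ-like cells, 1.56 (1.01 to 2.47) in α-like cells and 0.869 (0.505 to 1.45) in γ-like cells. The difference between the classes in this ratio was not tested. Npy outside β-like cells was counted in 1 HFD δ-like cell with 4 UMIs, 1 HFD Schwann-like cell with 2 UMIs and 1 WT fibroblast-like cell. Gast was counted in α-like cells of both libraries (5 and 2 UMIs) and in 4 HFD δ-like cells, and in no other named class. Its level was higher in WT α-like cells, at 7.297 CPM (2.37 to 17.03), than in WT β-like cells (0.697 CPM, 0.506 to 0.935). Of those 5 UMIs, 4 came from 1 cell. In HFD it was higher in δ-like cells, at 10.3 CPM (2.79 to 26.3), than in β-like cells (1.55 CPM, 1.28 to 1.85). The HFD α-like interval (0.251 to 7.49 CPM) overlapped that of HFD β-like cells. Cartpt was counted in 1 WT δ-like cell with 4 UMIs, in 2 WT γ-like cells, and in 1 α-like, 1 δ-like and 1 pericyte-like HFD cell.

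The members also differed between HFD β-like cells with and without Cck, the gene of cholecystokinin, which is induced in β cells in obesity. A Cck UMI was found in 48 HFD β-like cells. These held Pdyn at 199 CPM (171 to 230), against 87.8 CPM (85.7 to 89.9) in the 5809 HFD cells without Cck. Cartpt stood at 24.1 CPM (15.1 to 36.5) against 6.15 CPM, and Nucb2 at 306 CPM (271 to 344) against 213 CPM. Ucn3 was lower, at 144 CPM (120 to 171) against 173 CPM (170 to 176), a ratio of 0.830 on a log2 interval of -0.53 to -0.02. Npy and Gast had 0 UMIs in the cells with Cck, which allows up to 4.05 CPM for each. The cells without Cck held Npy at 0.526 CPM and Gast at 1.56 CPM, below that limit, so no difference can be read for these genes. In 2 WT cells with Cck no level was read.

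**Figure D5:**
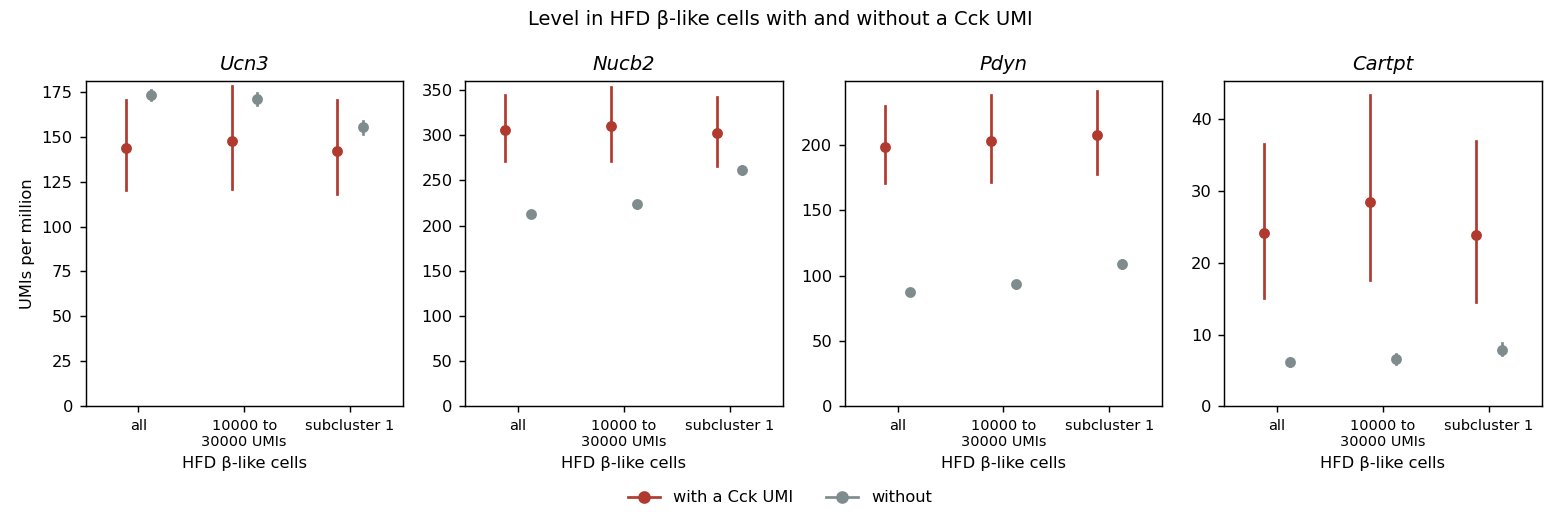
Level (CPM, exact Poisson 95% intervals) of Ucn3, Nucb2, Pdyn and Cartpt in HFD β-like cells with a Cck UMI (red) and without (grey), for all cells, for cells of 10000 to 30000 UMIs and within subcluster 1. Pdyn and Cartpt lie higher in the cells with Cck in all 3 settings.

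Cells with Cck were deeper, with a median of 16789 UMIs against 11865, and 41 of the 48 lay in subcluster 1. Among cells of 10000 to 30000 UMIs, Pdyn stood at 203 CPM in 39 cells with Cck and at 93.4 CPM in 3547 without, and Cartpt at 28.4 and 6.57 CPM. Ucn3 did not differ beyond counting error there (log2 ratio -0.21, -0.50 to 0.06). Within subcluster 1 Ucn3 stood at 142 CPM (118 to 170) with Cck and 155 CPM (151 to 159) without. In the same subcluster Pdyn stood at 208 CPM (178 to 241) with Cck and 109 CPM (106 to 112) without, while the Nucb2 interval with Cck, 266 to 342, lay just above the 261 CPM of cells without. In HFD cells with an Aldh1a3 UMI, a gene raised in stressed β cells, Pdyn stood at 121 CPM in 784 cells against 82.2 CPM in 5073 without. Nucb2 stood at 252 against 206 CPM and Ucn3 at 155 against 177 CPM. Cells with Aldh1a3 were also deeper, with a median of 16198 UMIs against 11406, and 18582 against 13025 in subcluster 1. Among cells of 10000 to 30000 UMIs, Pdyn stood at 120 CPM with Aldh1a3 and 88.9 CPM without. In those cells Nucb2 stood at 258 and 217 CPM and Ucn3 at 158 and 173 CPM. Within subcluster 1, of these 3 genes only Pdyn had separate intervals, at 130 CPM (123 to 137) with Aldh1a3 and 105 CPM (101 to 108) without, while Nucb2 stood at 268 (259 to 279) and 260 CPM (255 to 265) and Ucn3 at 153 and 155 CPM.

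The machinery around these peptides was read from gene lists. Of 17 receptor genes for these peptides and cholecystokinin, 3 had at least 100 UMIs in β-like cells, and none of the 3 differed by 2-fold. They were the galanin receptors Galr1 (9.86 CPM in WT, 10.4 in HFD) and Galr3 (4.81 and 4.46) and the Vipr1 receptor for VIP and the Adcyap1 peptide (9.89 and 7.73). The dynorphin receptor Oprk1 had 0 UMIs in β-like cells of either library. The urocortin 3 receptor Crhr2 stood at 9.07 CPM in δ-like cells of both libraries together, with 6 WT and 3 HFD UMIs in β-like cells. So the β-like cells carried galanin receptor transcripts while Gal itself was nearly uncounted in them.

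All 10 peptide processing genes passed the UMI minimum, with a median log2 ratio of 0.12. None differed by 2-fold, which at shares of 0.970% higher and 1.24% lower over all genes says nothing particular of the list. Pcsk1, the first convertase of the insulin pathway, stood at 142 CPM in WT against 155 CPM in HFD, and Pam, which amidates peptide ends, at 114 and 169 CPM. Cpe, the carboxypeptidase that trims the cut ends, stood at 774 and 1054 CPM. Of 26 other peptide precursor genes, 13 passed the minimum. Cck and Vgf were at least 2-fold higher in HFD (Vgf 6.16 CPM in WT and 17.2 CPM in HFD), and Gcg and Ppy, the hormone genes of α and γ cells, at least 2-fold lower. Their source in β-like cells was not tested, and 151 WT and 285 HFD β-like cells had over 1% of UMIs from Gcg, Sst, Ppy and Pyy. Nucb1, the paralogue of Nucb2, stood at 48.1 and 56.9 CPM, a log2 ratio of 0.24 against 0.73 for Nucb2.

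Among 12 β cell maturity genes, a set to which Ucn3 is often added, the median log2 ratio was -0.38 against -0.02 for all genes tested. None differed by 2-fold, again near the share over all genes. Mafa, a transcription factor of mature β cells, stood at 304 CPM in WT against 164 CPM in HFD, a log2 ratio of -0.89, and Slc2a2, the glucose transporter, had -0.80. Ucn3 had -0.14, near Slc30a8 (-0.15), Ins1 (-0.12) and Ins2 (-0.07), and G6pc2 (0.14) and Ero1lb (0.13) lay above 0. Of 10 genes of immature β cells, 5 passed the UMI minimum, with a median log2 ratio of -0.66, below that of the maturity genes. Among these 5, Rbp4, Cd81 and Neurog3 were lower in HFD β-like cells. Their levels in δ-like cells of both libraries together, 5441, 294 and 24.6 CPM, lay above those of β-like cells. For Rbp4 the β-like levels were 80.3 (WT) and 51.1 CPM (HFD), and for Cd81 27.3 and 17.3 CPM. Gcg, Sst and Ppy of other endocrine cells were lower in HFD β-like cells too. Whether RNA of those cells set the median of this list was not tested. Aldh1a3 was at least 2-fold higher in HFD (0.807 CPM in WT and 15.1 CPM in HFD), and Neurog3 was at least 2-fold lower (1.12 CPM in WT and 0.507 CPM in HFD). Over all genes tested, 0.970% were at least 2-fold higher and 1.24% at least 2-fold lower.

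Over 18 units of cell class and library, the genes whose log2(CPM + 1) followed a member most closely were Car10 (Pearson r = 0.91), Fkbp1b and Gpr158 for Ucn3, Spock1 (r = 0.85), 1700019D03Rik and Acvr1c for Pdyn, Vldlr (r = 0.80), Isoc2b and Pycr1 for Nucb2, and Acot11 (r = 0.92), Grin1 and Gp5 for Cartpt. The units share libraries and differ in depth, so these values only describe likeness of pattern.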

How the data were processed

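The deposited files held raw counts of UMIs, unnormalised, which the authors made with Cell Ranger (v3.0.2) against mm10, per the labels and the study's methods. Cells were filtered as stated. Scrublet called 1 WT and 0 HFD doublets, so the highest scores were left out instead, 121 WT and 641 HFD barcodes. Counts were scaled to 10000, square-root transformed and clustered with scanpy (v1.11.5) and igraph (v0.11.9) at resolution 1. The 2000 variable genes used excluded the members, Ins1, Ins2, Gcg, Sst, Ppy and Cck. Clusters outside the β-like ones were clustered again with Gcg, Sst and Ppy allowed, and 76 WT cells of low depth stayed unnamed. Classes are called X-like from marker lists in which at least 3 markers were detected. Rebuilt names can differ from those of the study.

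UMIs were summed per class and library and given as CPM. 3′ UMI counts were not scaled to gene length, so levels are compared within a gene. Intervals are exact Poisson, Clopper-Pearson or conditional, at 95%. Shares were compared after thinning cells to 2000 UMIs. The named genes were the 8 members, the 3 genes most like each member of at least 500 UMIs, and members of 5 gene lists. A gene of the immaturity list is not reported here. The members, lists and rules were chosen with earlier results of these data known. The fold calculation and the thinning were tested on simulated data. Alternatives used edgeR (v4.0.16, R v4.3.3) for a TMM factor. The positions come from GENCODE M21, in which no other gene overlaps a member.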

Additional observations from a re-analysis of the deposited data

Results flagged for a closer look

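Barcodes left out by the filters on genes, mitochondrial UMIs and doublet scores, 1402 in WT and 2278 in HFD, were used in no comparison of the report, apart from the alternative that put doublet candidates back. They also held member UMIs, and 4 members were higher there in HFD than in WT beyond counting error. Pdyn stood at 73.6 CPM in HFD and 30.2 CPM in WT, Nucb2 at 168 and 79.8 CPM, Cartpt at 6.89 and 0.668 CPM, and Gal at 5.05 and 2.51 CPM.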

How the results depend on the processing

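No paired analysis was possible because each group held 1 library. Of 129 alternative values over 29 results, 104 lay within the 95% counting interval of the value reported, 24 lay outside it, and 1 changed the sign of a value whose interval lay clear of 0. The signs of 3 values whose intervals held 0 also changed: the Npy share at 1000 UMIs, and at most 15000 UMIs the Gast share (-0.109 points) and the Nucb2 log2 ratio in γ-like cells (0.11). With at most 15000 UMIs per cell, which kept 241 of 1927 WT and 3916 of 5857 HFD β-like cells, the log2 HFD to WT ratio was -0.0758 for Ucn3, 0.84 for Pdyn, 0.97 for Nucb2, 0.89 for Cartpt and 0.29 for Gal, and Npy had no WT UMI left. The matched share of Cartpt cells was then lower in HFD, by -0.321 percentage points. Scaling without hormone and mitochondrial genes moved the median of all genes by -0.08 and gave -0.22 for Ucn3, 0.96 for Pdyn and 0.65 for Nucb2. The edgeR TMM factor moved it by 0.05 and gave -0.0890 for Ucn3 and 0.78 for Nucb2. Gast had 1.90 at Leiden resolution 2 and 1.91 without cells with a second hormone, where the Nucb2 share difference was 12.9 points. In cells of 10000 to 30000 UMIs, a setting chosen after seeing the data, the ratio was -0.22 for Ucn3, 1.95 for Pdyn and 0.97 for Nucb2.

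Thinning sets the size of share differences. At 1000 UMIs the HFD minus WT difference was -1.66 percentage points for Ucn3, 4.45 for Pdyn, 0.0164 for Npy and 6.20 for Nucb2, and at 5000 UMIs it was 12.9 for Pdyn, 16.6 for Nucb2, 0.527 for Gast and 0.984 for Cartpt. The settings without the highest cell of each library, with insulin over 40% of UMIs, for class order and for cells with Cck by depth were also chosen after seeing the data. Keeping doublet candidates, at most 10% mitochondrial UMIs and at least 1000 genes left each β-like ratio within its interval. For Npy, Gast, Cartpt and Gal the number of UMIs limits what can be read, and with 1 library per group the spread between mice is unknown. The cause of each shift was not tested.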
